A study of Macaca mulatta with 8 samples.

Results

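Open chromatin was mapped by ATAC-seq, in which the Tn5 transposase inserts adapters into accessible DNA, in cortex cells of the rhesus macaque. The regions described here carried a peak at post-conceptional days 60 and 85 (E60 and E85) and none at day 80 (E80). They were chosen by the stage codes in the peak names of the authors' merged peak table, on autosomes alone. There were 656 such regions among 69716 autosomal regions with a peak of any stage. A peak at day 50 (E50) was absent from 403 of them and present in 253, and these kinds are kept apart except where both are named together. Calls at E60, E80 and E85 made the selection, so they are given as a description and nothing is tested on them.

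The 4 groups were E50, E60, E80 and E85, each with 1 culture of primary cells and 2 technical libraries. Per the labels, cortical tissue was frozen, thawed, dissociated with papain and plated in a medium that enriches progenitors, with FGF2, EGF and BDNF. All groups shared this treatment, so the culture limits each group as a model of the cortex at its age. With 1 culture a stage, age cannot be told apart from the animal, the thaw or the culture, and the stages were not replicated. The table gives 1 peak set a stage, with 19833, 61956, 60278 and 30701 peaks from the youngest to the oldest stage. Promoters of all 14 radial glia marker genes (PAX6 and SOX2 among them) were called at all 4 stages. Promoters of intermediate progenitor genes were called for 0, 7, 6 and 1 of 9 genes at E50, E60, E80 and E85. Of 12 microglia genes, 1 had a promoter call at E60 and at E80, and none at E50 or E85. Among 19839 protein-coding genes on autosomes, 45.9%, 66.0%, 64.6% and 54.5% had a promoter call at these stages.

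Most open regions far from genes are candidate enhancers, short stretches where transcription factors displace nucleosomes and raise transcription of a gene nearby. Such regions open and close as cortical radial glia pass from making neurons to making glia, while promoters of broadly used genes are open in most cells. AP-1, a dimer of FOS and JUN proteins induced by growth factors and stress, and nuclear factor I (NFI), a family tied to the onset of gliogenesis, are both known to bind enhancers in neural progenitors.

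A missing E80 peak may also be one that was called and then left out of the table. Peak names carry a running number, which followed genome order without a break at every stage, and some numbers were skipped. At E80 16.4% of the numbers did not occur in the table. For each region the nearest E80 peaks on either side were found, and their numbers were either consecutive or had a gap. Among members without E50, 88 of 403 lay in such a gap (21.8%, exact 95% interval 17.9 to 26.2), and among members with E50 82 of the 252 with a peak on both sides did (32.5%, 26.8 to 38.7). The flanking peaks stood a median of 54329 bp and 53921 bp apart, so a skipped number need not belong to the member between them. Of regions called at E60 and at neither E80 nor E85, 14.5% (13.9 to 15.2) lay in an E80 gap without E50 and 26.9% (16.8 to 39.1) with E50. Results below are given for all members and, where it matters, for the 315 and 170 members with consecutive E80 numbers. Whether a filter made the members in gaps was not tested. All intervals below are exact Clopper-Pearson 95% intervals and cover counting error alone.

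The sequences shown here are distal members, those over 1000 bp from an annotated start, that hold a motif found more often in members of at least 1 kind than in every comparison set described below. They come from the Mmul_10 assembly, plus strand, 5′ to 3′, with the motif in capitals and the region's centre at the middle base. For each motif the member of each kind with the motif nearest its centre and with consecutive E80 numbers was taken, off chromosome 8. The first pair holds CAGCTG, the E-box of proneural factors, in an intron of OGFRL1 without an E50 peak and in an intergenic region with one.
OGFRL1 intron, chr4:101623793-101623913, without E50: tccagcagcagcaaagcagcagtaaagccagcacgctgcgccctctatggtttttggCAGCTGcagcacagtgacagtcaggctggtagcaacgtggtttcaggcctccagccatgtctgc
intergenic, chr1:141645773-141645893, with E50: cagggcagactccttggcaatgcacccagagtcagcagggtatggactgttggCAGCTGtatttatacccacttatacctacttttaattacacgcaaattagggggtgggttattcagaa
The next pair holds ATGCAAAT, the octamer of POU factors, and both members are intergenic.
intergenic, chr6:16276345-16276465, without E50: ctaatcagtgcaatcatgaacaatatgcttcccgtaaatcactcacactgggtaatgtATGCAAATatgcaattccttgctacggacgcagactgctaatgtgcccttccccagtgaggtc
intergenic, chr16:67280505-67280625, with E50: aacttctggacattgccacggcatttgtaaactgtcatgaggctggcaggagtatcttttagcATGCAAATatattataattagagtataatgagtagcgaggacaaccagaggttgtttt
The third pair holds TTGGCA, the motif of a single NFI subunit, here as TGCCAA, in introns of KIAA1217 and of ABAT, which encodes the enzyme that breaks down GABA.
KIAA1217 intron, chr9:25326768-25326888, without E50: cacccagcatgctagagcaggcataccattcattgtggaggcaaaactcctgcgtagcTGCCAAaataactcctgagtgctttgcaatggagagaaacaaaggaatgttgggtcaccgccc
ABAT intron, chr20:8770136-8770256, with E50: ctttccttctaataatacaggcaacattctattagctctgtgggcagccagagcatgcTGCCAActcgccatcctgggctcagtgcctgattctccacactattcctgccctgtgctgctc
The last pair holds AGCCAAT, the CCAAT box bound by NFY, here as ATTGGCT.
intergenic, chr1:70022414-70022534, without E50: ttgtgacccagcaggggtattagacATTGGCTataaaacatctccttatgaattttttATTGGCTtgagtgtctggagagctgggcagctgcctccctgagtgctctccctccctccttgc
XYLT2 exon, chr16:46418122-46418242, with E50: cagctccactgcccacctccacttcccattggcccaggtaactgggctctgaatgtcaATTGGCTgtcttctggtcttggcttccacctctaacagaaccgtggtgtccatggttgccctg
The NFY member on chromosome 1 carries the box at 2 places. The member on chromosome 1 with CAGCTG also has a homeobox motif in the 150 bp on either side of its centre. In both members shown for CAGCTG, the NFI motif TTGGCA overlaps the capitals, so these matches share letters. The one on chromosome 1 holds TTGGCA at another place too. A match is a description of these letters, not of binding. The class in each label is that of the whole region, and any overlap with an exon made it exon. The bases printed for the XYLT2 member therefore need not be exonic, nor the exon one of XYLT2.

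Members were mostly distal. Without E50 the median width was 418 bp, with quartiles of 308 and 604 bp, and with E50 it was 587 bp, with quartiles of 411 and 858 bp. The comparison sets were regions called at E60 and E80 and not E85, at E80 and E85 and not E60, and at all 3 of these stages. Their median widths were 429, 370 and 553 bp without E50, and 776, 538 and 1005 bp with E50. Members were thus narrower than regions called at all 3 stages, in both kinds, but lay between the other comparison sets. A region spans all peaks merged into it, so calls at more stages can widen it by construction. Introns held 176 of the members without E50 (43.7%) and 107 of those with E50 (42.3%), and intergenic sequence held 169 (41.9%) and 98 (38.7%). Promoters, within 1000 bp of an annotated start, made up 31 members without E50 (7.69%, 5.29 to 10.7) and 28 with E50 (11.1%, 7.48 to 15.6). Promoter shares were 16.0%, 5.41% and 26.1% in the 3 comparison sets without E50, and 21.2%, 15.9% and 50.6% with E50. Both kinds of member therefore held fewer promoters than regions called at E60 and E80 or at all 3 stages.

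**Figure D1:**
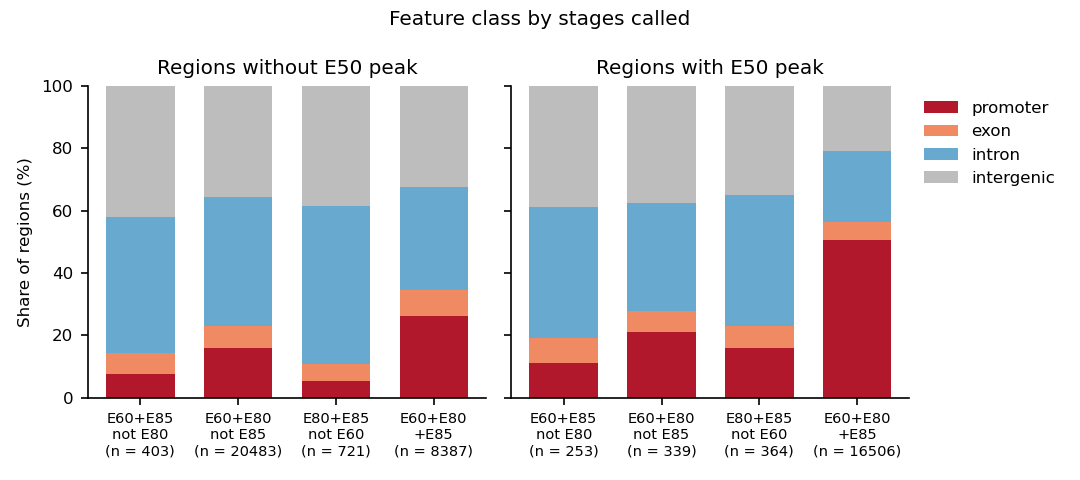
Share of regions (%) that are promoter, exon, intron or intergenic, by the stages called, for regions without an E50 peak (left) and with one (right); n is the number of regions. Promoters make up 7.69% and 11.1% of the regions called at E60 and E85 and not E80, against 26.1% and 50.6% of those called at all 3 stages.

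Seen from the other side, 403 of 8790 regions called at E60 and E85 without E50 lacked E80, which is 4.58%. With E50 it was 253 of 16759 regions, or 1.51%. These shares are the selection itself and carry no test. Promoters lacked E80 in 1.40% (0.950 to 1.97) and 0.334% (0.222 to 0.483) of cases, introns in 5.95% (5.12 to 6.86) and 2.74% (2.25 to 3.30). As a description, the share lacking E80 was thus lower at promoters than in introns in both kinds. This share also fell with width. Without E50 it was 7.05% in regions of 300 bp or less and 1.27% in those over 1000 bp. With E50 these were 4.88% and 0.479%. The part of width in the lower promoter share was not tested. By chromosome, the share without E50 had an interval that left out the 4.58% of all autosomes on chromosomes 12 (7.04%, 4.61 to 10.2) and 15 (6.82%, 4.62 to 9.65), which were higher, and on chromosome 1 (3.03%, 2.02 to 4.35), which was lower. These are 3 of 20 intervals, with no correction for their number. With E50 the interval of each autosome held 1.51%.

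Promoter members lay at skipped E80 numbers more often than distal members. Of the 28 with E50, 24 lay in a gap of the numbering (85.7%, 67.3 to 96.0), and of the 31 without E50 14 did (45.2%, 27.3 to 64.0). Distal members lay in a gap in 58 of 224 cases with E50 (25.9%, 20.3 to 32.1) and in 74 of 372 without E50 (19.9%, 16.0 to 24.3). Promoters stood out in the same direction at the other stages, though not to the same extent. Of regions called at E80 and E85 and not E60, with E50, 44 of 58 promoters lay at a skipped E60 number (75.9%). Of those called at E60 and E80 and not E85, 43 of 72 lay at a skipped E85 number (59.7%). Distal regions of these sets did in 30.1% and 19.9%. Without E50 the shares were 51.3% of promoters and 15.5% of distal regions lacking E60. For regions lacking E85 they were 20.2% and 13.1%. With consecutive numbers alone, promoters were 17 of 315 members without E50 (5.40%, 3.17 to 8.50) and 4 of 170 with E50 (2.35%, 0.645 to 5.91).

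**Figure D2:**
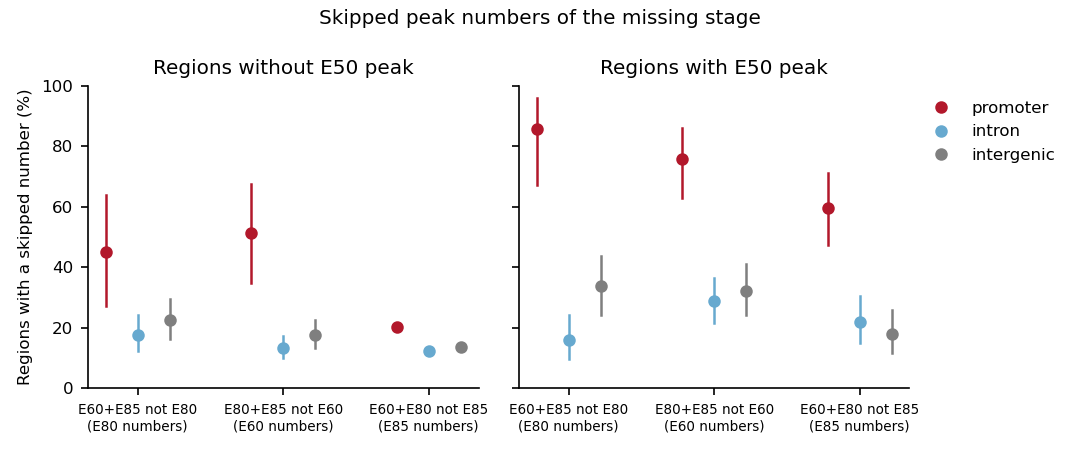
Regions (%) whose nearest peaks of the stage they lack have a gap in their numbers, by feature class, without (left) and with (right) an E50 peak; bars are exact 95% intervals. Promoters called at E60 and E85 with E50 and not at E80 stand at 85.7%, against 15.9% of such introns.

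The 38 promoter members at skipped numbers included ATR, the checkpoint kinase of stalled replication, AQR, an RNA helicase of the spliceosome, GEMIN6, of the complex that assembles splicing particles, and TPM1, a tropomyosin. MCCC2, for leucine breakdown, SPG7, a mitochondrial protease, ATP7B, a copper transporter, and the shared start of RECQL5 and SAP30BP were also in gaps, all with E50. Without E50, the shared start of PRPF31, a splicing factor, and TFPT lay in a gap, as did that of DKKL1 and TEAD2, a factor of the Hippo pathway. The absence of an E80 call at these starts therefore cannot be told apart from a peak left out of the table. The 4 promoter members with E50 and consecutive numbers were at DOK5, KIAA1257, LOC722485 and LOC106997086, the last within the locus of ZIC4, a zinc finger factor of the dorsal midline. Without E50 the promoter members with consecutive numbers included CCT7, a chaperonin subunit, LAPTM4A, a lysosomal membrane protein, CC2D2A, of the ciliary transition zone, and PDE4D, a phosphodiesterase of cyclic AMP. Several stood beside an E80-called region: the gap was 72 bp at LAPTM4A, 127 bp at PDE4D, 144 bp at BBOX1 and 153 bp at GPR1. Of the members named above in gaps of the numbering, that at DKKL1 and TEAD2 stood 56 bp from an E80-called region, and that at TPM1 593 bp. The CCT7 and LAPTM4A members lay 866 bp and 709 bp from the nearest annotated start. At ATR and GEMIN6 the member was the only region of the locus, so neither had an E80 call at a start in the table. At DOK5 another region, over the gene's first start, was called at E80. Whether the other genes named here had an E80 call at a start was not tested. All these promoter genes were picked for the text once their values were known.

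The AP-1 motif was scarce in members of both kinds. The motif TGANTCA was searched on both strands within 150 bp of the centre, with N for any base, and 26.7% of all regions held it. It was in 32 of 403 members without E50 (7.94%, 5.49 to 11.0) and in 12 of 253 with E50 (4.74%, 2.47 to 8.14). Comparison shares were weighted to the GC content and the promoter or distal class of the members. Without E50 they were 41.6% in regions called at E60 and E80, 23.0% in those called at E80 and E85 and 28.4% in those called at all 3 stages, and with E50 they were 20.6%, 19.2% and 25.3%. AP-1 was thus less frequent in members than in every set that includes E80, and each interval lay below all 3 shares. Among members with consecutive numbers it was in 20 of 315 (6.35%, 3.92 to 9.64) and in 3 of 170 (1.76%, 0.365 to 5.07). Regions called at 1 of the 3 stages alone, unweighted and without E50, held the motif in 16.0% at E60, 53.1% at E80 and 10.4% at E85. With E50 these shares were 7.46%, 18.2% and 9.73%, of 67, 44 and 411 regions. Of these, the motif was most frequent where E80 alone was called, in both kinds. The E85 share without E50 and the E60 share with E50 lay within the members' intervals, so a low AP-1 share is not particular to the members. The reversed motif, a control of the same composition, was in 6.20% of members without E50 and 9.74%, 10.0% and 8.35% of the comparison sets. Promoters of AP-1 subunit genes were called for 8 of 10 genes at E50 and 9 of 10 at each later stage.

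The NFI motif was more frequent in members than in the 3 comparison sets, which all include E80, in both kinds. TTGGCA was in 130 members without E50 (32.3%, 27.7 to 37.1), against 21.2%, 26.0% and 23.6%, and in 20.3% of all regions. With E50 it was in 83 members (32.8%, 27.1 to 39.0), against 24.0%, 26.6% and 25.1%. In members with consecutive numbers the share was 36.5% (31.2 to 42.1) without E50 and 39.4% (32.0 to 47.2) with E50, above the 3 sets, while in members in gaps it was 17.0% and 19.5%. The excess with E50 was smaller than counting error with windows of 100 or 250 bp, in distal regions alone and in regions with no lifted peak. Regions called at a single one of the 3 stages, unweighted, held it in 25.8% (E60), 20.4% (E80) and 32.3% (E85) without E50, so the E85 share equalled that of the members, and in 26.9%, 20.5% and 22.6% with E50. The full palindromic NFI site was in 1 member without E50 and in none with E50.

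Without E50, 3 further motifs were more frequent in members than in every comparison set. CAGCTG was in 128 members (31.8%, 27.2 to 36.6), against 23.5%, 24.2% and 21.6%, and in 24.4% of all regions. The POU motif ATGCAAAT was in 22 members (5.46%, 3.45 to 8.15), against 3.16%, 3.19% and 3.22%, and in 2.81% of all regions. The CCAAT box of NFY, AGCCAAT, was in 31 members (7.69%), against 4.06%, 4.20% and 4.57%, and in 4.54% of all regions. The letters of the CCAAT box on the other strand, ATTGGCT, share TTGGC with the NFI motif. In regions called at E60, E80 or E85 alone, unweighted and without E50, CAGCTG was in 31.7%, 20.7% and 23.0%, POU in 4.74%, 2.10% and 4.93% and NFY in 4.76%, 3.64% and 5.59%. The E60 share of CAGCTG and both the E60 and E85 shares of POU were within the members' intervals, as was the E85 share of NFY (members 5.29 to 10.7), so these motifs are not particular to the members. Of these, CAGCTG (33.3%) and NFY (8.57%) remained above all 3 sets with consecutive numbers, and POU (5.40%, 3.17 to 8.50) did not. In the 153 members without E50 and without a lifted peak, CAGCTG (32.0% against at most 25.0%), the NFI motif (31.4% against at most 24.9%) and POU were within counting error of a comparison set, and so were POU and NFY with a window of 250 bp. With E50 the members held CAGCTG in 33.6% (27.8 to 39.8), close to the 33.9% of regions called at E60 and E80. Among the 28 reversed controls, that of SOX was also above all 3 sets without E50 (14.1% against 10.3%, 9.09% and 10.3%), and none was with E50.

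Over all members, the other motifs named here lay within counting error of at least 1 comparison set. The homeobox motif TAATTA was in 10.9% of members without E50 and 13.8% with E50 (8.35% of all regions). With E50 it came above all 3 sets without the weighting and in regions with no lifted peak, where 19.2% of members held it against a mean of 6.79%. The NR2F motif AGGTCA was in 12.2% of members without E50 (9.13 to 15.8), and with consecutive numbers in 11.1% (7.86 to 15.1), below the 16.6%, 17.9% and 15.4% of the 3 sets. TEAD, as ACATTCC, was in 5.21% and 4.74% (5.46%), KLF/SP, as GGGCGG, in 11.9% and 19.0% (25.7%), and CTCF in 2.98% and 1.58% (4.72%). The KLF/SP share followed the numbering: it was 8.24% in members with E50 and consecutive numbers and 40.2% in those in gaps, which also held most of the promoters.

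**Figure D3:**
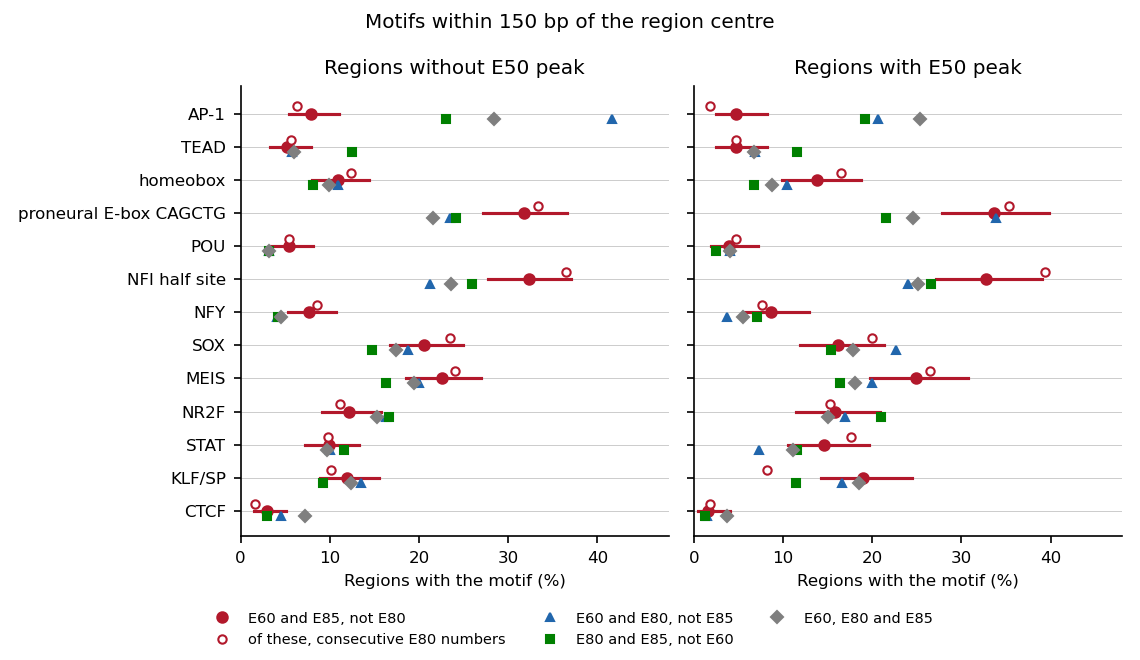
Regions (%) with each motif within 150 bp of the centre, without (left) and with (right) an E50 peak; filled red circles are regions called at E60 and E85 and not E80 with exact 95% intervals, open red circles those with consecutive E80 numbers, and the other symbols the comparison sets weighted to the same GC content and class. AP-1 stands at 7.94% and 4.74%, left of all comparison sets, and the NFI motif at 32.3% and 32.8%, right of them.

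Since members were narrower than regions called at all 3 stages, the share lacking E80 was also taken within bins of width. This was done over distal regions called at E60 and E85. Without E50, 1.81% (1.22 to 2.60) of those with AP-1 and 6.90% (6.21 to 7.64) of those without it lacked E80. With E50 these shares were 0.541% (0.271 to 0.967) and 3.37% (2.94 to 3.84). In regions over 300 and up to 500 bp the shares were 2.60% and 8.10% without E50, and 0.438% and 6.66% with E50. In regions over 500 and up to 1000 bp they were 1.41% and 5.85%, and 0.596% and 3.12%. The intervals with and without AP-1 were apart in both of these bins and both kinds. In regions over 1000 bp they overlapped in both kinds, with 0 of 89 against 15 of 501 regions without E50 and 2 of 377 against 25 of 1885 with E50.

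For the NFI motif the order was the opposite. Distal regions with it lacked E80 in 8.56% (7.19 to 10.1) without E50 and 3.66% (2.90 to 4.55) with E50, and those without it in 4.81% (4.24 to 5.43) and 2.35% (1.99 to 2.76). In regions of 300 bp or less without E50 the shares were 11.7% (7.97 to 16.4) and 6.42% (4.98 to 8.12), with intervals that overlapped. In regions over 300 and up to 500 bp without E50 they were 9.75% and 5.39%, with intervals apart. With E50 they were 7.17% and 4.12% in that bin, with intervals that overlapped. Above 1000 bp they did not differ beyond counting error.

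**Figure D4:**
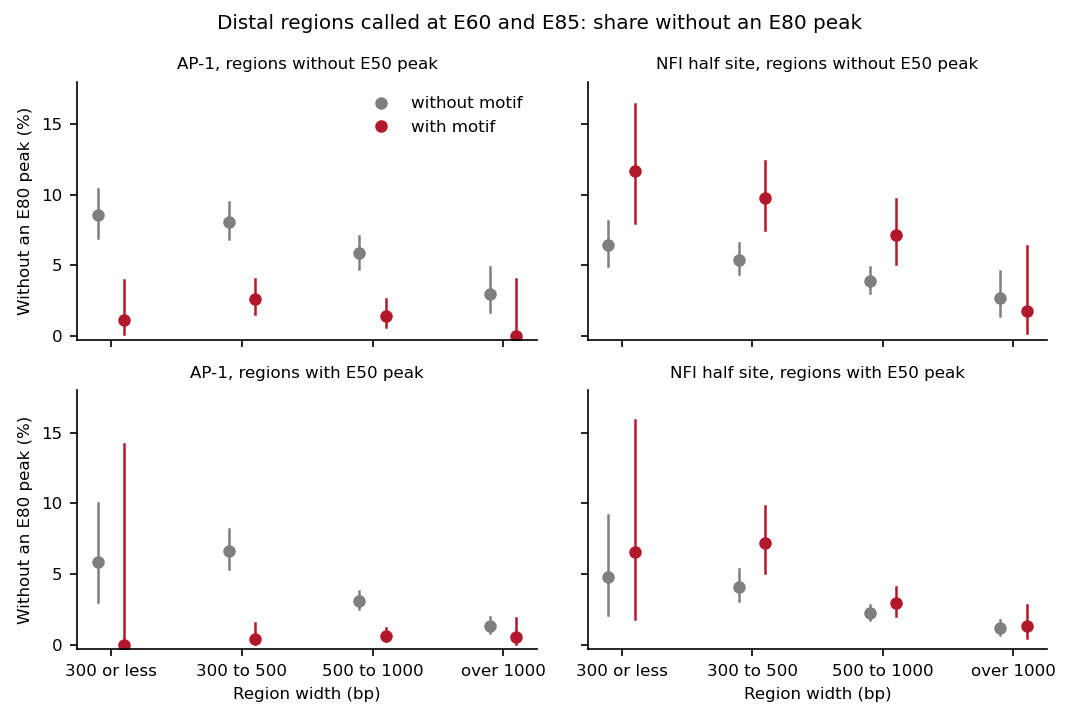
Distal regions called at E60 and E85 that have no E80 peak (%), by region width (bp), with (red) and without (grey) the AP-1 motif (left) or the NFI motif (right), for regions without (top) and with (bottom) an E50 peak; bars are exact 95% intervals. Regions with AP-1 lie below those without it in each bin, and the intervals overlap in the widest bin and, with E50, in the narrowest.

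Members, like the comparison sets, lay among regions that E80 did have. The nearest E80-called region was a median of 8701 bp away without E50 and 9412 bp with E50. It was within 1000 bp for 53 members (13.2%, 10.0 to 16.8) and 27 members (10.7%, 7.15 to 15.1). In the comparison sets the nearest other E80-called region was a median of 8093, 10104 and 7048 bp away without E50. With E50 it was 8563, 7399 and 8072 bp away. It was within 1000 bp in 14.6%, 12.1% and 15.0% of these regions without E50, and 12.4%, 12.1% and 15.1% with E50. This nearness is therefore not particular to the members. Of other regions within 50 kb, 80.5% and 77.6% were called at E80, beside 80.6% of all regions. Around the comparison sets this share was 80.9%, 82.2% and 82.5% without E50, and 80.0%, 81.8% and 83.2% with E50. The members' shares were thus below those of each set, by little without E50, and the difference was not tested. Another member lay within 50 kb of 22 members without E50 and 16 with E50, so most were single. The nearest annotated start was a median of 30438 bp away without E50 and 26451 bp with E50. In the comparison sets it was 18578, 24534 and 11539 bp away without E50, and 17483, 14112 and 807 bp with E50.

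A second readout that the selection did not use was the lifted peaks, from 4 sets that the labels do not define. At least 1 was merged into 250 members without E50 (62.0%, 57.1 to 66.8) and 180 with E50 (71.1%, 65.1 to 76.6). The comparison sets held one in 61.4%, 45.2% and 78.4% without E50, and in 79.6%, 64.3% and 90.8% with E50. Members of both kinds thus held one less often than the set called at all 3 stages, with intervals apart. Regions of that set were also wider, and the part of width in this was not tested. Sequence repeated in the genome, with over 50% of bases in 16-base words found at least 20 times, made up 26 members without E50 (6.45%, 4.26 to 9.31) and 28 with E50 (11.1%, 7.48 to 15.6). With E50 this was above the 4.13%, 6.04% and 2.16% of the comparison sets, though the interval of the second (3.83 to 9.01) overlapped that of the members. Regions with E50 called at E60, E80 or E85 alone of the 3 stages had 2.99%, 13.6% and 8.76%, of 67, 44 and 411 regions. The last 2 shares lay within the members' interval, so repeated sequence is not particular to the members. Its part in the calls was not tested. The widest member, of 9875 bp on chromosome 4 from 142293508 to 142303382, spans the start of LOC100429458, lies in a gap of the E80 numbers, and has 60.6% of its bases in such words.

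Members were spread over many genes. A locus was the gene body with 5000 bp upstream, and 223 members without E50 and 152 with E50 lay in one. At least 1 member without E50 was in 226 of the 4443 loci with a region called at E60 and E85 without E50 (5.09%), and at least 1 with E50 was in 159 of 10507 (1.51%). Over both kinds, 355 loci held 1 member, 17 held 2 and 2 held 3. The loci with 3 were DOK5, for an adaptor docked by receptor tyrosine kinases, and PTPRD, for a receptor phosphatase of synaptic adhesion.

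At DOK5 (chromosome 10 from 89681758 to 89854483, plus strand) 3 of 9 regions were members, all with consecutive E80 numbers. One, with E50, lay within 749 bp of an annotated start (89683020 to 89684220). It stood 346 bp from a region over the gene's first start that was called at E60 and E80 and not at E50 or E85, so both were called at E60 and they differed at the other 3 stages. The other members were intronic, at 89731088 to 89731837 without E50 and at 89826895 to 89828413 with E50. A further region was called at E85 alone and another at E60 alone, while 4 had an E80 peak. The bases around the centre of each member are shown because no other locus held as many members of both kinds. Capitals mark TGACAG (MEIS) in the first, AGGTCA (nuclear receptors of the NR2F family) and the NFI motif in the second, and CAGATG, on either strand, and ATGCAAAT (POU) in the third.
DOK5 start, chr10:89683520-89683720, with E50: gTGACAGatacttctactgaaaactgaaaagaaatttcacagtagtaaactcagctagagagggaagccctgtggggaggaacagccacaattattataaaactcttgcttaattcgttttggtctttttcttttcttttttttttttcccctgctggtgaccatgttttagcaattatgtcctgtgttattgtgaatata
DOK5 intron, chr10:89731362-89731562, without E50: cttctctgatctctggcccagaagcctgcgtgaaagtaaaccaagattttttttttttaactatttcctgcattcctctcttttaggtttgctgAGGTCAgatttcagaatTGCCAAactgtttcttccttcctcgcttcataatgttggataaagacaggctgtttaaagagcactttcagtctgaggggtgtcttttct
DOK5 intron, chr10:89827554-89827754, with E50: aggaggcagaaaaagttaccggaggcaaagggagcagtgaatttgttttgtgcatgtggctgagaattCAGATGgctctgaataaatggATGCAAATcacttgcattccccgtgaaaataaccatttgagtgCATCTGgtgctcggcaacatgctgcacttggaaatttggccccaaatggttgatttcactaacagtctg
None of the 3 has an AP-1 motif within 150 bp of its centre. The first also holds a homeobox motif and an NFI motif farther from its centre.

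At PTPRD (chromosome 15 from 73098032 to 75442549) all 19 regions were called at E60, 9 at E80, 4 at E85 and none at E50. Of the 4 called at E85, 3 were members without E50, at 73436264 to 73437151, 74701358 to 74701593 and 75369899 to 75370503, and their E80 numbers were consecutive. The nearest E80-called region was 338066, 125955 and 65264 bp away, so none of these lay beside an E80 region. At SFRP1, a secreted antagonist of WNT, 2 members without E50 stood 161 bp apart in an intron, on chromosome 8 at 41855688 to 41856073 and 41856235 to 41856817. The SFRP1 promoter was called at all 4 stages, and 2 of the 6 regions of the locus were called at E60 alone.

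**Figure D5:**
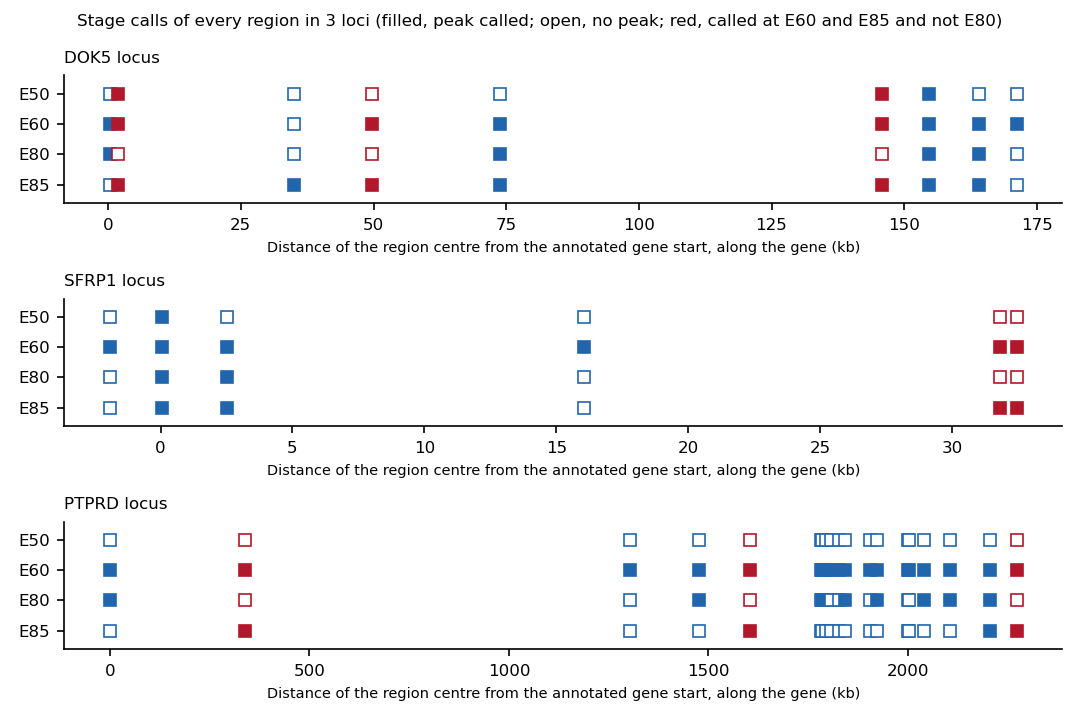
Stage calls of every region in the DOK5, SFRP1 and PTPRD loci, by distance of the region's centre from the annotated gene start (kb); filled squares are peaks, open squares no peak, and red marks regions called at E60 and E85 and not E80. The red regions, 3, 2 and 3 in number, have open squares at E80 by selection. Of the other regions of each locus, some are filled at E80 and some are open.

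Other loci with 2 members without E50 were PLEKHM3, PALD1, MED27, of the Mediator complex, KIAA1217 and GSE1. GSE1 held 64 regions, 55 called at E60 and 46 at E80, so 2 members are few among them, and 1 of these lay in a gap. ASTN2, an astrotactin of neuronal migration, held 2 members with E50 that stood 3364 bp apart in an intron. SGPP2, which encodes a phosphatase of sphingosine-1-phosphate, LRRC3B, EFCC1, KATNAL2 and ITPKB, an inositol trisphosphate kinase, held 1 of each kind. At SGPP2 none of the 5 regions was called at E80. Both KATNAL2 members lay over starts and in gaps of 3 E80 numbers.

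Of 20 lists of cell type and pathway genes, 15 genes had a member in their locus, and none had a promoter member. They were 7.94% (4.51 to 12.8) of the 189 listed genes with a region called at E60 and E85 in their locus, beside 374 of 12460 such loci of any protein-coding gene (3.00%). The listed loci also held more of these regions, a mean of 2.84 against 1.72. Counted by region, 11 of 196 in listed loci without E50 were members (5.61%, 2.83 to 9.82) and 5 of 340 with E50 (1.47%, 0.479 to 3.40), near the 4.58% and 1.51% of all such regions. Among progenitor and glial genes, SOX2, which maintains radial glia, and TNC, an outer radial glia matrix protein, had 1 each, and NFIB, itself a nuclear factor I gene, had 1. The NFIB member lies on chromosome 15 from 69319732 to 69320885, and its locus had 3, 17, 9 and 6 regions at E50, E60, E80 and E85. Among neuronal genes, NCAM1, RBFOX3, SOX5 and CUX1 had 1 each, as did ERBB4 of the interneuron list and GRIN2A and NRXN3 of the synapse list. NRP1 and SLIT2 of axon guidance had 1 each, that at NRP1 in a gap of the numbering. Among WNT genes, SFRP1 and AXIN2, a feedback inhibitor, held 3 of the list's 17 regions called at E60 and E85 without E50 (17.6%), and WNT3A of the choroid plexus and hem list held 1 of its list's 3. These counts are too small to set a list apart. Radial glia genes held 0 of 12 such regions without E50 and 1 of 37 with E50 (2.70%). Lists with no member were intermediate progenitors, oligodendrocyte lineage, microglia, endothelium, mesenchyme and mural cells, AP-1 subunits, cadherins and protocadherins, cell cycle and housekeeping. Most held few regions that could be members, such as 1 without E50 for intermediate progenitors. Cadherins and protocadherins had 0 of 11 without E50 and 0 of 29 with E50, counts too small to differ from the share over all regions.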

How the data were processed

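Per the labels' protocols, each of 4 stages had 1 cortex culture and 2 technical Omni-ATAC libraries. Tools and build, from the submitters' processing notes, were cutadapt 4.4, Bowtie2 2.5.1, SAMtools 1.15 and rheMac10. How peaks were called, filtered (the names carry the tag nativeFiltered), merged or pooled is not given in the sources used here. Of the authors' deposited merged peak table, which has no header, only positions and names of merged peaks were read; these are text, not a score or signal. Its 8 unnamed value columns could not be tied to libraries and were left aside, and with them the depth of each library.

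A region was called at a stage when it held at least 1 peak of that stage. Members and lists were chosen with earlier results of these data known. Starts in the table count from 0 and were made 1-based; sequence names and ends matched the Mmul_10 assembly, which rheMac10 names. Regions within 1000 bp of the start of a protein-coding gene or lncRNA were promoters, then exon, intron or intergenic. The 28 motifs and their reversed controls were searched on both strands within 150 bp of the centre. Comparison shares were weighted over GC bins of 5% and promoter or distal class, not over width. A motif was named where the members' interval excluded all 3 comparison shares, and AP-1, TEAD, homeobox, CAGCTG, NFI, CTCF and KLF/SP always. Named loci were the 10 with most members in each kind, ties broken by the members' share of the locus's regions; of those holding 1 member, only some are named. The assembly file holds no repeat mask, so repeated sequence was measured by 16-base words with at least 20 copies. The check of peak numbers, the width bins and the loci with both kinds were added after seeing the data. Of 261 listed genes, 253 were found on autosomes. The motif search, weighting and intervals were tested on simulated data. With 1 peak set a stage no p-value was computed. Python 3.11.15, pandas 2.3.3, SciPy 1.17.1 and matplotlib 3.10.9 were used.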

Additional observations from a re-analysis of the deposited data

How the results depend on the processing

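No paired analysis was possible because the table gives 1 peak set a stage and no values that can be tied to a library by name; for the same reason leaving out each library was not run. With regions that hold no lifted peak, 153 members without E50 and 73 with E50 remained, and the promoter share with E50 was 4.11%. That share was 7.04% in regions of at most 1000 bp and 2.35% with consecutive E80 numbers, which left 103 loci with a member with E50.

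The AP-1 share stayed below all 3 comparison sets in both kinds under the 6 alternatives run. The shares of the motifs that were above all 3 sets kept their direction but came within counting error of the highest comparison set in these settings, given as the difference in percentage points. Without E50 and with no lifted peak it was 7.04 for CAGCTG, 6.45 for the NFI motif TTGGCA and 2.60 for POU; POU was 1.84 and NFY 1.94 higher with a 250 bp window, and POU 2.00 higher with consecutive numbers, an alternative chosen after seeing the data. With E50 the NFI motif was 4.93 higher with a 100 bp and with a 250 bp window, 6.07 in distal regions and 5.35 with no lifted peak. Against the mean of the comparison sets, the KLF/SP difference went from 0.184 to -8.33 without E50 and from 3.48 to -9.42 with E50 when unweighted, and was also below 0 without E50 with a 100 bp (-0.0710) or 250 bp window (-0.769) and with E50 and consecutive numbers (-0.204). That of CTCF with E50 went from -0.535 to 0.302 with consecutive numbers. The homeobox difference with E50 came above all 3 sets unweighted (7.32) and with no lifted peak (12.4). The cause of these changes was not tested, though fewer members make wider intervals. Chromatin may be open at a stage and still miss the peak threshold, which these calls cannot show.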

Other observations

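All words of 7 letters, either strand counted as 1, were counted within 150 bp of the centre of the 464 distal members with consecutive E80 numbers, both kinds together. These words were chosen, out of 7865 that occurred in members, after their values were seen and carry no test. Shares were not weighted for GC content, and the comparison sets kept regions in gaps of the numbering. Over whole regions of all classes, median GC content was 47.8% in members without E50, against 51.2%, 48.3% and 54.7% in the comparison sets. With E50 it was 49.0%, against 51.8%, 50.9% and 58.3%, which can favour words rich in A and T. ATGCTAA was in 50 members (10.8%), against 4.20% of distal regions called at E60 and E80, 4.66% of those called at E80 and E85 and 4.18% of those called at all 3 stages. GTTTACA, which overlaps the forkhead motif TGTTTAC, was in 37 members (7.97%), against 3.43%, 3.74% and 3.27%. ATTATAA was in 29 members (6.25%), against 2.18%, 2.02% and 2.09%. At the other end stood TGACTCA, an AP-1 site, in 13 members (2.80%), against 32.6%, 16.4% and 20.0%. Words that shift it by a base or more, such as ATGAGTC, in 1.72% of members, were also scarce. The one listed among the 8 scarcest that does not overlap AP-1 letters was CACATCC, in 8 members (1.72%), against 5.82%, 5.26% and 5.15%.

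Regions called at E85 alone of the 3 later stages showed skipped E80 numbers more often than members did. With E50 they lay in a gap in 237 of 411 cases (57.7%, 52.7 to 62.5), and 137 of their 146 promoters did (93.8%, 88.6 to 97.1). Without E50 it was 263 of 911 (28.9%, 25.9 to 31.9). Regions called at E60 alone of these stages had lower shares than members, 1639 of 11278 without E50 (14.5%, 13.9 to 15.2) and 18 of 67 with E50 (26.9%, 16.8 to 39.1). The last interval holds the members' share with E50. Of the 403 members without E50, 60 lay at a skipped E50 number (14.9%, 11.6 to 18.7), so the lack of an E50 peak at these 60 carries the same doubt. At E50 34.8% of the numbers did not occur in the table. The share in E50 gaps was not taken for other regions without E50, so 14.9% cannot be called high or low.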
